A study of Mus musculus with 11 samples.

Results

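Synaptic vesicle release machinery is described here as 50 listed genes that encode proteins of the presynaptic vesicle cycle. The members were chosen by name, from presynaptic vesicle, SNARE and active zone genes, and their rows were found among the 48709 genes of the count tables through their Ensembl identifiers. All 50 were found, and all 50 passed the filter on low counts that left 17365 genes for testing. RNA was sequenced from primary hippocampal neurons of embryonic day 17 CD1 mice. On day 10 in vitro the cultures received lipid nanoparticles, small lipid carriers given together with apolipoprotein E4, loaded with the mimic of miR-181a-5p in 5 samples and with a scrambled negative control oligonucleotide in 6. RNA was taken after 48 h, on day 12 in vitro. Both groups therefore carried nanoparticles, and an untreated group was not analysed here. The hippocampi of all embryos of a dam were pooled for culture, the cultures held glia beside neurons, and no label gives the samples separate cultures, so the p-values measure the spread between these samples, which may be technical.

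A synaptic vesicle is a small membrane sphere filled with neurotransmitter. Vesicles are held in a pool by synapsins, brought to the active zone by Rab3 GTPases and scaffold proteins, primed by the Munc13 proteins, and fused with the plasma membrane when the SNARE proteins zip together. Synaptotagmins sense the calcium that triggers fusion, complexins clamp and promote it, and clathrin, dynamin and synaptojanin recover the membrane afterwards. A microRNA pairs through its seed, nucleotides 2 to 8, mainly with sites in the 3' untranslated regions (3' UTRs) of messenger RNAs, and lowers their stability or translation. The comparison asks which vesicle genes differ in messenger RNA between cultures given the mimic and cultures given the control.

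The delivered strands are shown first, with the seed in capitals, since they define the matches searched below.

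mimic miR-181a-5p: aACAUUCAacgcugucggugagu
negative control: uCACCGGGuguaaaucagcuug

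The mimic was identical to the mature mmu-miR-181a-5p of RefSeq (GRCm38.p6), which is encoded by Mir181a-1 (chromosome 1, 137966468 to 137966490) and Mir181a-2 (chromosome 2, 38852741 to 38852763). The complement of nucleotides 2 to 8 is TGAATGT, and an A after it gives the 8-nucleotide match TGAATGTA. A shorter form, GAATGTA, pairs with nucleotides 2 to 7 and has the A; it also lies inside every TGAATGTA. The search covered the sense strand of 1 3' UTR per gene, the longest annotated (GENCODE M21, GRCm38). TGAATGT was found in 10 of 50 members, or 20%, against 19.2% of 14512 tested genes with a 3' UTR. Either 7-nucleotide form was found in 16 members, or 32.0%, against 24.8% of those genes, while the members had longer 3' UTRs (median 2380 against 1374 bases). The following 30-base windows are written 5' to 3' on the strand of the gene, with the match in capitals. They show the matches of Sv2b and Pclo, the 2 members that were called, and for contrast those of the Sv2b paralogs Sv2a and Sv2c. The 8-nucleotide matches of the 3 members that hold one follow, without the shorter match of Stxbp5.

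Sv2b, chr7:75116270-75116299, minus strand: ctgagatccaggttggaactTGAATGTgga
Sv2b, chr7:75115712-75115741, minus strand: taaatatatataaatatacaGAATGTAtta
Pclo, chr5:14860009-14860038, plus strand: aaatctcctatgatagaaagGAATGTAaaa
Sv2a, chr3:96195313-96195342, plus strand: ctcctccagtgcccagtgtgTGAATGTgcg
Sv2c, chr13:95959395-95959424, minus strand: cccagagcagaccttttggtTGAATGTggc
Sv2c, chr13:95958165-95958194, minus strand: gccattgttatctacccaggGAATGTAccg
Sv2c, chr13:95955434-95955463, minus strand: tgatccaggccaggtggagtTGAATGTccc
Stxbp5, chr10:9757412-9757441, minus strand: tagttttagatgaatttttaTGAATGTAct
Synpr, chr14:13614064-13614093, plus strand: attattaatgtagagaatgtTGAATGTAaa
Syt7, chr19:10453036-10453065, plus strand: tgtgtgtgtctgtgtgtctgTGAATGTAta

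These letters are a description of the 3' UTRs, and whether the mimic bound there was not tested. The match of the control strand, CCCGGTG, was in 3 members, or 6.0%, and in 3.36% of the tested genes with a 3' UTR.

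Total counts per sample lay between 17287168 and 48091231, with control replicate 1 the deepest. The members took between 1.94% and 2.00% of the counts in control and between 1.92% and 1.98% in mimic samples. Values below are CPM, counts per 1000000 on TMM-scaled library sizes, and are comparable between samples but not between genes. A count of 0 would have allowed up to 0.0631 CPM in the deepest and 0.175 CPM in the shallowest sample, counting error only, yet the lowest count of any member in any sample was 6, for Cplx3. The 16 neuronal markers outside the synapse summed to between 10379 and 10687 CPM in control and between 10498 and 10749 CPM with the mimic, overlapping between groups, and none was at 0 in any sample. Of these 16, 1 was called lower, the neurofilament gene Nefm (255 ± 6.00 CPM in control, 238 ± 7.17 CPM with the mimic, edgeR adjusted p 0.0353), and its groups did not overlap. Astrocyte markers (10 genes) summed to between 4950 and 5390 CPM in control and between 4543 and 4860 CPM with the mimic, without overlap, and 1 of 10, the glutamate transporter gene Slc1a2, was called lower. Markers of dividing cells (10 genes) stood higher, at 98.4 to 109 CPM against 83.6 to 93.2 CPM, with 4 called higher. Fibroblast and vascular markers (10 genes) summed to 292 to 432 CPM in control and 436 to 577 CPM with the mimic, again without overlap, with Rgs5 called lower and Cldn5 close to 0. The oligodendrocyte lineage list (335 to 404 against 307 to 355 CPM) and the microglia list (16.7 to 17.7 against 15.6 to 16.97 CPM) overlapped and had no call by the edgeR test. The part of these cell mixtures in the changes of vesicle genes was not tested, and in such bulk samples fewer cells of a type and less RNA per cell cannot be told apart.

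The vesicle genes of these neurons spanned more than 3 orders of magnitude. Compared per length, as counts per kilobase of exon scaled to 1000000 per sample, Cplx2 (complexin 2) was highest in control with a level of 1614 ± 38.6 (SD, n = 6). It was followed by Cplx1 at 985 ± 44.2, the vesicle SNARE gene Vamp2 at 952 ± 29.1 and the vesicle GTPase gene Rab3a at 856 ± 30.6. The spreads of Cplx1 and Vamp2 overlapped, so their order is not resolved. Syn1 (744 ± 24.4) and Syt11 (742 ± 6.72) came next and did not differ beyond their spread. At the low end stood Syt2 (1.84 ± 0.141), Syn3 (1.41 ± 0.129), Unc13c (1.103 ± 0.124) and Cplx3 (0.649 ± 0.116), the 4 members under 5 CPM.

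**Figure D1:**
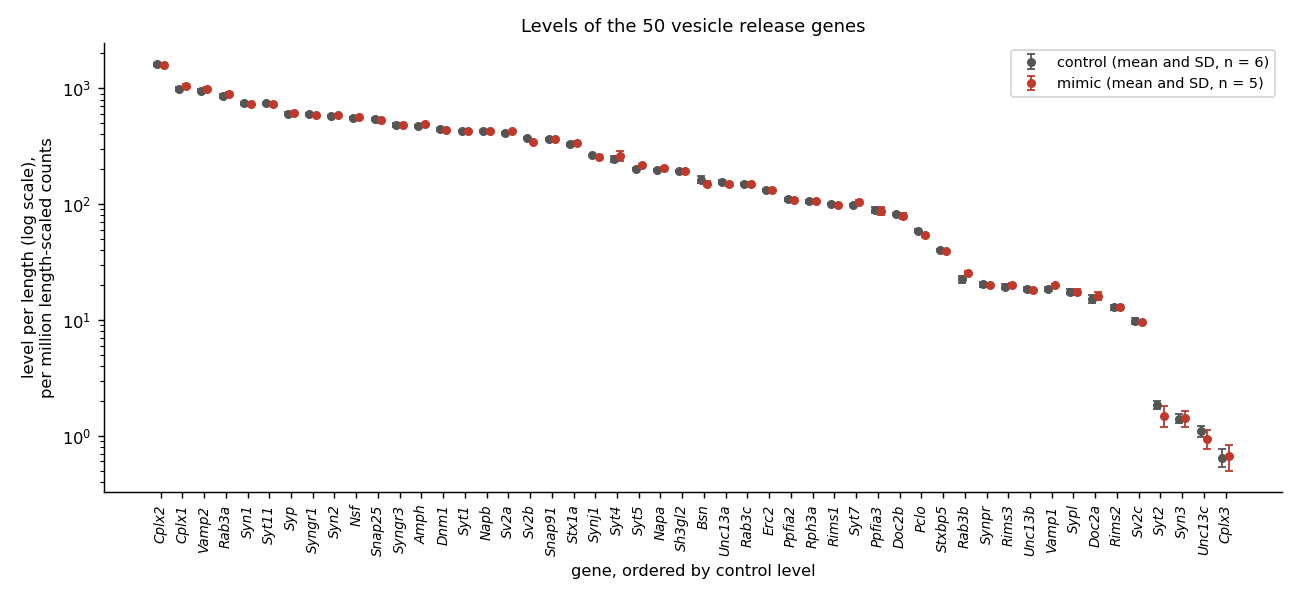
Level per length of the 50 members (log axis, counts per kilobase of exon scaled to 1000000 per sample), as mean and SD of 6 control and 5 mimic samples, ordered by the control mean. Cplx2 leads at 1614 in control, 4 genes lie below 2, and the 2 groups stand close together for each gene.

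Within families the same paralog dominated in both groups. Of the summed level per length, Vamp2 took 98.1% ± 0.036 (SD, n = 6) of the Vamp1 and Vamp2 total in control and 98.0% ± 0.081 (n = 5) in mimic samples. Unc13a took 88.7% of the Unc13 family in both groups, Rab3a 83.3% and 83.6% of the Rab3 family, and Rims1 75.9% and 74.9% of the Rims family. Syn1 and Syn2 shared the synapsin total, with 56.2% and 43.7% in control. In the SV2 family, Sv2a and Sv2b were near parity in control, at 51.9% and 46.9%. The Sv2b share was 45.9% to 48.4% in the control and 44.0% to 44.8% in the mimic samples, without overlap. In the complexins, the Cplx1 share lay at 36.8% to 38.7% in control and at 39.5% to 39.9% in mimic samples, again without overlap. These shares were not tested, and a share moves when any paralog moves.

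Few members passed the test, and the differences were small. The edgeR quasi-likelihood test with Benjamini-Hochberg adjustment over all 17365 genes called 2 of 50 members (4.0%) lower in mimic samples, Sv2b and Pclo, and 0 higher. Among all tested genes, 1.77% were called lower and 1.08% higher. Where the mean was 10 CPM or more, which 46 of the 50 members reached, 2.89% were called lower and 1.08% higher. The count of members called lower rested on the processing. It was 4 of 50 (8.0%) with DESeq2, beside 2% of all genes, 4 without a count filter, beside 1.54%, and 4 without control replicate 2, beside 1.65%. DESeq2 and limma called 0 members higher. At an unadjusted p under 0.05 in edgeR, 13 members (26.0%) were lower, beside 8.41% of all tested genes and 12% of those with at least 10 CPM. In the other direction 5 members (10%) were higher, beside 7.3% and 7.24%.

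The direction was uneven. Of the 50 members, 35 (70.0%) had a log2 fold change below 0, against 50.1% of all tested genes and 53.8% of those with at least 10 CPM. The median log2 fold change was -0.0298 for the members and -0.000149 for all tested genes, and single members ranged from -0.32 to 0.15. In 4 members every mimic sample lay below every control sample (Sv2b, Pclo, Stxbp5 and Synj1), and in 0 members every mimic sample lay above. Over all tested genes these shares were 1.73% and 1.16%. Among the 9673 with at least 10 CPM, 259 were separated in this way below control and 130 above. Per sample, the median member stood between -0.0387 and 0.0352 log2 units from the control mean in control samples and between -0.0615 and -0.0014 in mimic samples, so the groups overlapped on this measure. For 35 members the 95% interval of the change lay between a decrease of 10% and an increase of 10%, and for 47 within 20%. Of the 9673 tested genes with at least 10 CPM, 6529 lay within 10% and 9395 within 20%.

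**Figure D2:**
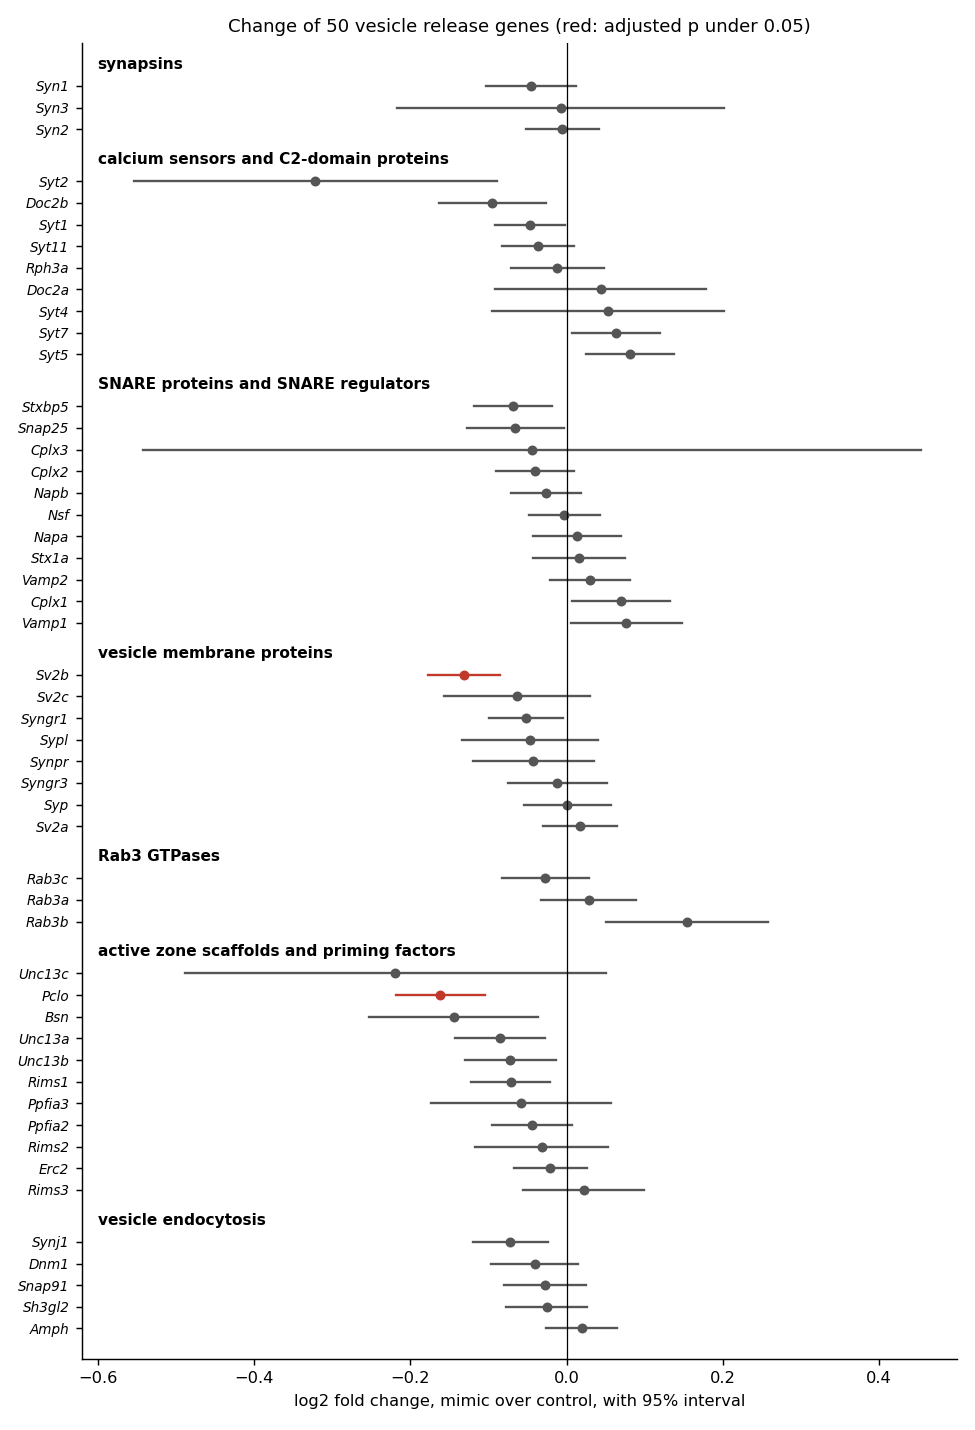
Log2 fold change of each member (mimic over control, edgeR) with its 95% interval, grouped by role, with the 2 called genes in red. Of the 50 points, 35 lie left of 0, and the widest intervals belong to Cplx3, Syt2 and Unc13c, which are among the 4 members under 5 CPM.

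Synapsins coat vesicles and tie the reserve pool to actin, and none of the 3 was called. Syn1 had a lowest, median and highest value of 562, 598 and 609.8 CPM in control, and stood at 585, 564, 591, 586 and 535 CPM in mimic replicates 1 to 5. The groups overlapped, and mimic replicate 5 was lowest overall (log2 fold change -0.046, SE 0.028, edgeR adjusted p 0.481). Syn2 stood at 978 ± 24.0 CPM (SD, n = 6) in control and 974 ± 18.5 CPM (n = 5) in mimic samples, and its 95% interval ran from -3.56% to 2.90%. Syn3 had about 4 CPM in both groups, and its exons overlap those of Timp3 on the opposite strand, and since the library kit does not mark strand, reads of both genes there cannot be told apart.

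Of the 9 calcium sensors and C2-domain proteins, none was called and the signs were mixed, with 5 below and 4 above 0. Syt1, the main fast calcium sensor for synchronous release, had 864 ± 8.34 CPM in control and 837 ± 19.6 CPM with the mimic (log2 fold change -0.047, edgeR adjusted p 0.288). Syt5 had the smallest p of the group, with the other sign. Its lowest, median and highest control values were 109.9, 114.8 and 119 CPM, and its mimic values were 126, 121, 117, 123 and 119 CPM. Only control replicate 3 reached into the mimic range (log2 fold change 0.081, SE 0.027, edgeR adjusted p 0.114). Syt7, a slow, high-affinity sensor with an 8-nucleotide match, also stood above control, at 185 ± 6.97 against 178 ± 4.77 CPM (adjusted p 0.255 in edgeR). Syt11, which does not bind calcium and restrains vesicle retrieval, is on the study's list of predicted miR-181a-5p targets and had 929 ± 7.47 CPM in control and 906 ± 27.6 CPM with the mimic. Its mimic samples spread from 872 to 948 CPM around the narrow control range of 918 to 939.9 CPM (log2 fold change -0.036, edgeR adjusted p 0.483). Doc2b, a sensor linked to spontaneous release, stood at 86.3 ± 2.46 and 80.8 ± 4.49 CPM (edgeR adjusted p 0.135), and Doc2a at 10.3 ± 0.892 and 10.6 ± 0.715 CPM. The most negative value of all members was that of Syt2 (log2 fold change -0.32, SE 0.11, edgeR adjusted p 0.134), a fast sensor typical of hindbrain and inhibitory synapses, which was scarce, at 41 to 174 counts per sample and at 3.38 ± 0.258 and 2.68 ± 0.513 CPM. Syt4 varied most between samples of this group among genes above 100 CPM: control replicate 2 (261 CPM) and mimic replicate 5 (273 CPM) were the highest of their groups.

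Core SNARE genes had estimated differences of a few percent, but some of their intervals reached further. Of the 11 SNARE proteins and regulators 0 were called by edgeR, DESeq2 or limma, with 6 log2 fold changes below and 5 above 0, and 2 in each direction had an unadjusted p under 0.05. The target-membrane SNARE genes Snap25 (889 ± 26.1 against 849 ± 47.7 CPM) and Stx1a (210 ± 7.09 against 212 ± 8.19 CPM) overlapped between groups, as did Vamp2 (872 ± 28.4 against 890 ± 24.1 CPM). The interval of Snap25 ran from -8.49% to -0.225% (log2 fold change -0.066, edgeR adjusted p 0.287). Those of Stx1a and Vamp2 ran from -2.93% to 5.30% and from -1.47% to 5.82%. Stxbp5 encodes tomosyn, a syntaxin-binding protein that inhibits SNARE assembly, and holds an 8-nucleotide and a shorter match. Its lowest, median and highest control values were 156, 161 and 164 CPM, and the mimic replicates had 156, 153, 152, 151 and 154 CPM. Every mimic sample lay below every control sample, by a margin under 1 CPM, but the change did not pass the test (log2 fold change -0.068, SE 0.024, edgeR adjusted p 0.140). Vamp1, a vesicle SNARE and a predicted target with a match, had the opposite sign, at 45.3 ± 1.99 CPM in control and 47.7 ± 1.104 CPM with the mimic (log2 fold change 0.076, edgeR adjusted p 0.277). Its interval ran from 0.347% to 10.8%.

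Complexins bind the assembled SNARE complex. Cplx2 spanned 1837, 1920 and 1969 CPM (lowest, median and highest) in control and 1936, 1831, 1899, 1851 and 1780 CPM with the mimic, with overlap (log2 fold change -0.041, SE 0.024, edgeR adjusted p 0.452). Cplx1 had the opposite sign at 518 ± 25.2 against 544 ± 19.0 CPM (edgeR adjusted p 0.257). Nsf, the ATPase that takes spent SNARE complexes apart, differed little, with a 95% interval from -3.30% to 2.97%. Its adaptors Napa and Napb had intervals from -2.95% to 4.96% and from -4.84% to 1.29%.

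The clearest difference among the vesicle membrane proteins was that of Sv2b. SV2 proteins are large transporter-like glycoproteins of the vesicle that act in priming and in trafficking of synaptotagmin. Sv2b (ENSMUSG00000053025, chromosome 7, 75114894 to 75309262, minus strand) had a lowest, median and highest value of 733, 748 and 775 CPM in control. In mimic replicates 1 to 5 it stood at 684, 692, 698, 680.1 and 671 CPM. The groups did not overlap, and the gap between the lowest control and the highest mimic sample was wider than the mimic range. The mean of 750.0 ± 16.1 CPM (SD, n = 6) in control against 685 ± 10.6 CPM (n = 5) in mimic samples gave a log2 fold change of -0.13 with a standard error (SE) of 0.022 (edgeR adjusted p 0.0016), a decrease with a 95% interval from -11.5% to -5.73%. Sv2b was not on the list of predicted targets, and both of its 7-nucleotide matches lie in the 3' UTR of the gene, 1316 and 1874 bases from its start.

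Neither paralog was called. Sv2a, which also holds a match and is the binding site of the antiepileptic levetiracetam, had 459 ± 10.4 CPM in control and 464 ± 7.15 CPM with the mimic, with an interval from -2.07% to 4.57%. Sv2c, with 3 matches, had 23.0 ± 1.37 against 22.0 ± 0.498 CPM (log2 fold change -0.064, edgeR adjusted p 0.569), and its wider interval from -10.3% to 2.10% holds part of the Sv2b range. Whether Sv2b differs from Sv2c in its change was not tested. Syp, synaptophysin, the standard vesicle marker, was level between groups, with 716, 763 and 781 CPM (lowest, median and highest) in control and 793, 735, 791, 751 and 727 CPM with the mimic (edgeR adjusted p 0.994, interval -3.73% to 4.02%). Its relatives Sypl and Synpr, both predicted targets, had log2 fold changes of -0.047 and -0.043 with edgeR adjusted p of 0.687 and 0.676. The synaptogyrin genes Syngr1 (694 ± 14.9 against 669.7 ± 16.1 CPM) and Syngr3 (238 ± 10.6 against 236 ± 9.55 CPM) overlapped between groups.

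Rab3 GTPases guide vesicles to the release site, and none of the 3 was called. Rab3a, the main brain form, had 426, 462 and 477 CPM (lowest, median and highest) in control and 473, 461, 500.1, 461 and 444 CPM with the mimic, with full overlap (log2 fold change 0.028, edgeR adjusted p 0.737). Rab3b was scarcer and had the most positive log2 fold change of all members. Its control values ran from 17.5 over 19.0 to 20.6 CPM, and its mimic values were 22.4, 20.2, 22.2, 20.95 and 20.1 CPM. Control replicates 3 and 5 overlapped the mimic range (log2 fold change 0.15, SE 0.050, edgeR adjusted p 0.102). Rab3c, which holds 2 TGAATGT and 2 shorter matches, the most of any member, had 432 ± 8.13 CPM in control and 424 ± 20.2 CPM with the mimic (log2 fold change -0.027, edgeR adjusted p 0.720).

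The active zone was the role group with the largest number of members below 0, at 10 of 11, with a median log2 fold change of -0.071. By share the synapsins stood higher, with all 3 below 0. Active zone scaffolds are very large proteins that arrange vesicles and calcium channels, and the Munc13 proteins, encoded by the Unc13 genes, prime vesicles for fusion. Only Pclo, the gene of piccolo, was called (ENSMUSG00000061601, chromosome 5, 14514918 to 14863459, plus strand). It had 297, 323 and 326 CPM (lowest, median and highest) in control and 287, 279, 273, 292 and 296 CPM with the mimic. All mimic samples lay below all controls, but control replicate 2, at 297 CPM, stood well under the other 5 controls and less than 1 CPM above mimic replicate 5. The means of 319 ± 11.2 CPM (SD, n = 6) and 285 ± 9.53 CPM (n = 5) gave a log2 fold change of -0.16 with an SE of 0.028 (edgeR adjusted p 0.0016), with a 95% interval from -14.1% to -7.02%. Pclo has no TGAATGT in its 3' UTR, holds 1 GAATGTA, and was not on the list of predicted targets.

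Bsn encodes bassoon, the close partner of piccolo, and had a similar estimate with a wider error. Its control values ran from 558 over 635 to 670.1 CPM and its mimic values were 601, 553, 558, 585 and 533 CPM. Control replicate 2 was again the lowest of its group, and it and control replicate 6 (589 CPM) fell inside the mimic range (log2 fold change -0.14, SE 0.050, edgeR adjusted p 0.168). Bsn passed the threshold in DESeq2 (adjusted p 0.0472), without a count filter (edgeR adjusted p 5.25e-05) and without control replicate 2 (edgeR adjusted p 0.0133), so its call depended on the processing. Unc13a, the main Munc13, behaved likewise across samples: 472 ± 19.4 CPM in control, with control replicate 2 lowest at 440.5 CPM, and 445 ± 14.1 CPM with the mimic (log2 fold change -0.085, SE 0.028, edgeR adjusted p 0.106). It too was called without control replicate 2 and without a count filter.

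Rims1, a Rab3-binding scaffold, stood at 179 ± 2.58 CPM in control and 171 ± 4.15 CPM with the mimic, with only mimic replicate 1 reaching the control range (log2 fold change -0.071, SE 0.025, edgeR adjusted p 0.123). Unc13b had 102 ± 3.00 against 96.7 ± 2.43 CPM (edgeR adjusted p 0.194). Erc2 and Ppfia2, an ELKS scaffold and a liprin, had intervals from -4.59% to 1.78% and from -6.44% to 0.469%. Rims3, a short RIM form and a predicted target, was the sole gene of the group above 0 (log2 fold change 0.022, edgeR adjusted p 0.860).

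**Figure D3:**
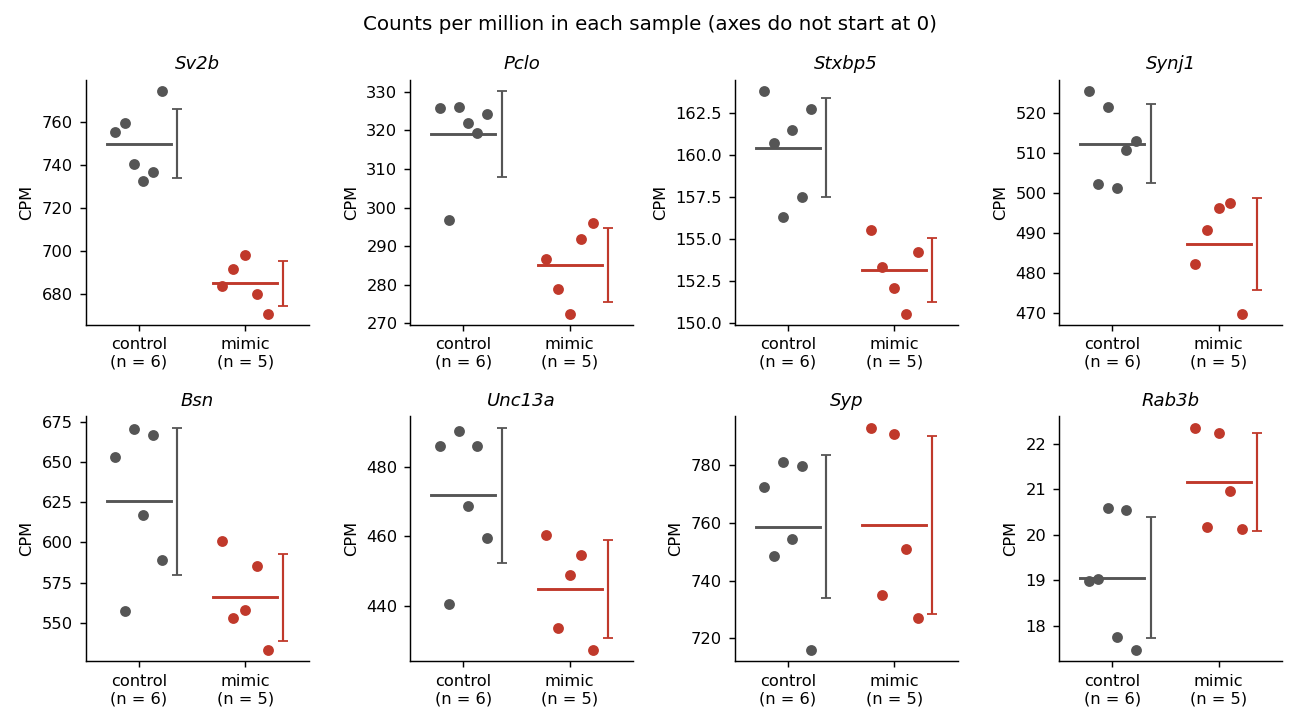
CPM in each of 6 control (grey) and 5 mimic (red) samples for 8 members, with the group mean (line) and SD (bar); the axes do not start at 0. Sv2b separates by the widest margin, Pclo, Stxbp5 and Synj1 separate narrowly, Bsn and Unc13a overlap through control replicates 2 and 6, and Syp and Rab3b are shown as a level gene and as the most positive member.

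Endocytic genes recover vesicle membrane after fusion, and none of the 5 was called in edgeR or limma. Synj1 encodes synaptojanin 1, a phosphoinositide phosphatase needed to shed the clathrin coat. It had 501, 512 and 525 CPM (lowest, median and highest) in control and 482, 491, 496, 497 and 469.9 CPM with the mimic, without overlap. The change came close to the threshold in edgeR (log2 fold change -0.072, SE 0.023, edgeR adjusted p 0.0956) and was past it in DESeq2 (adjusted p 0.0341). Amph, amphiphysin, had the highest level per length of the group and the other sign, at 514 ± 8.30 CPM in control and 521 ± 6.69 CPM with the mimic (log2 fold change 0.019, edgeR adjusted p 0.767). The dynamin gene Dnm1, Snap91 and the endophilin gene Sh3gl2 had log2 fold changes of -0.041, -0.028 and -0.026, with edgeR adjusted p from 0.527 to 0.716.

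**Figure D4:**
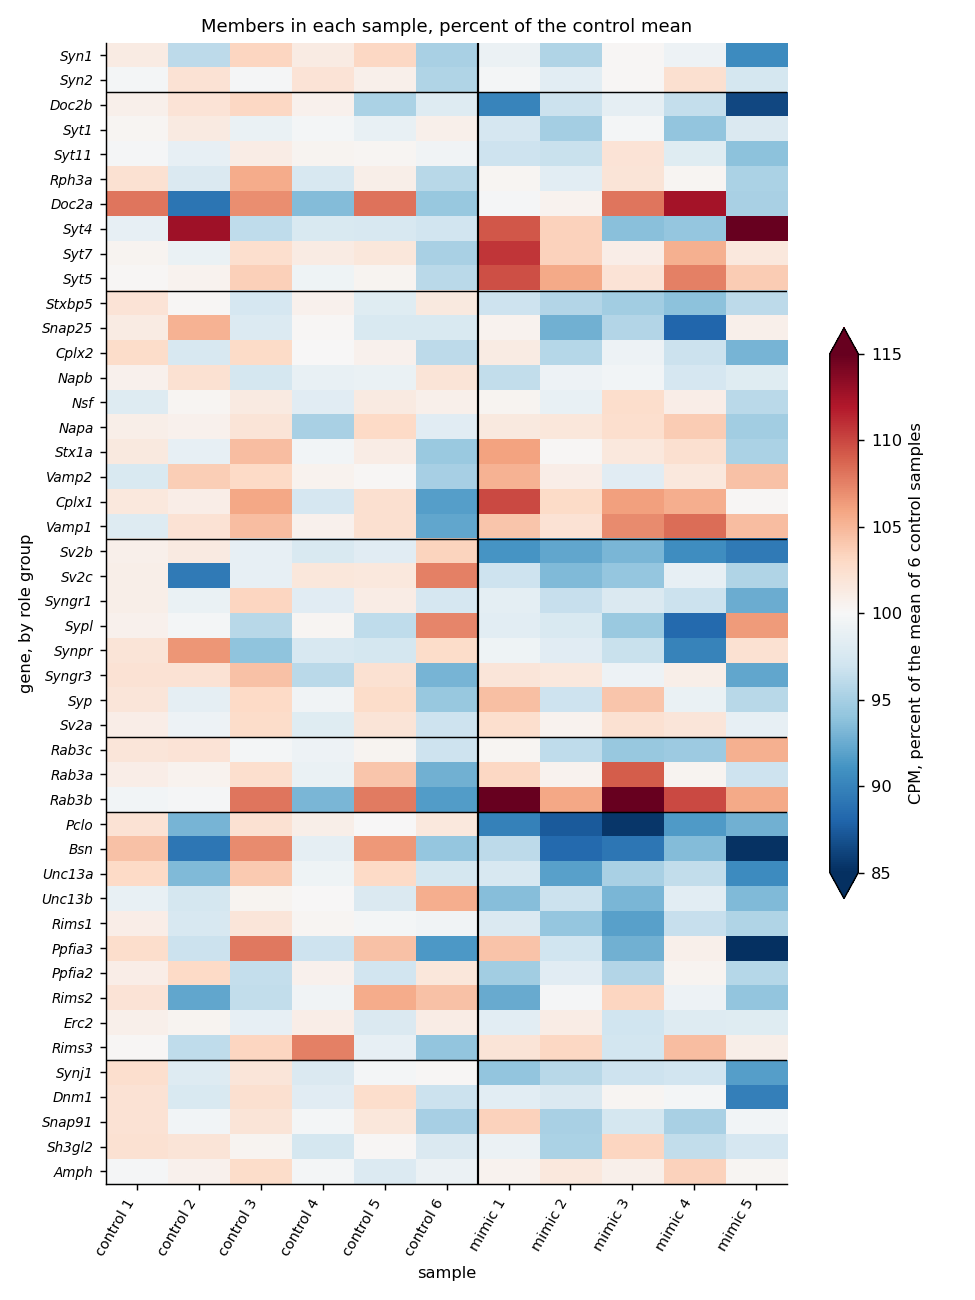
CPM of the 46 members above 5 CPM in each sample, as a percent of the gene's mean over 6 control samples, grouped by role and ordered by fold change within each role. The Sv2b row is below 95% in all 5 mimic samples, the upper active zone rows are blue in mimic samples and in control replicate 2, and most other rows stay near the control mean in both groups.

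Samples differed among themselves in ways that cut across the groups. The coefficient of variation of the members had a median of 3.10% in control and 3.41% in mimic samples, and was under 5% for 39 members in control. Control replicate 6 had the lowest median of the members in its group (-0.0387 log2 units) and mimic replicate 5 the lowest in its own (-0.0615). Mimic replicate 5 held the group minimum for Sv2b, Bsn, Unc13a, Synj1 and Syn1, but for Pclo it was the highest mimic sample.

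Members with a greater summed exon length tended to have lower log2 fold changes. Over the 50 members the Spearman correlation between summed exon length and log2 fold change was -0.525, beside -0.167 over 14566 tested protein-coding genes and -0.280 over 66 other presynaptic genes. All points share the same 11 libraries, so these are descriptions. Of the 12 members with under 4000 bases of exon, 3 were below 0 (median log2 fold change 0.029). Of the 28 between 4000 and 10000 bases, 23 were below 0 (median -0.041), and of the 10 above 10000 bases, 9 were (median -0.056). Among all tested protein-coding genes the medians of these classes were 0.014, -0.0045 and -0.035. The level of the members gave a correlation of 0.0227 with the change. Pclo (22457 bases) and Bsn (15938 bases) are long, but Unc13b, the longest at 22746 bases, changed less, and Sv2b has 8381 bases. What part length, in the cells or in the library, had in these values was not tested.

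**Figure D5:**
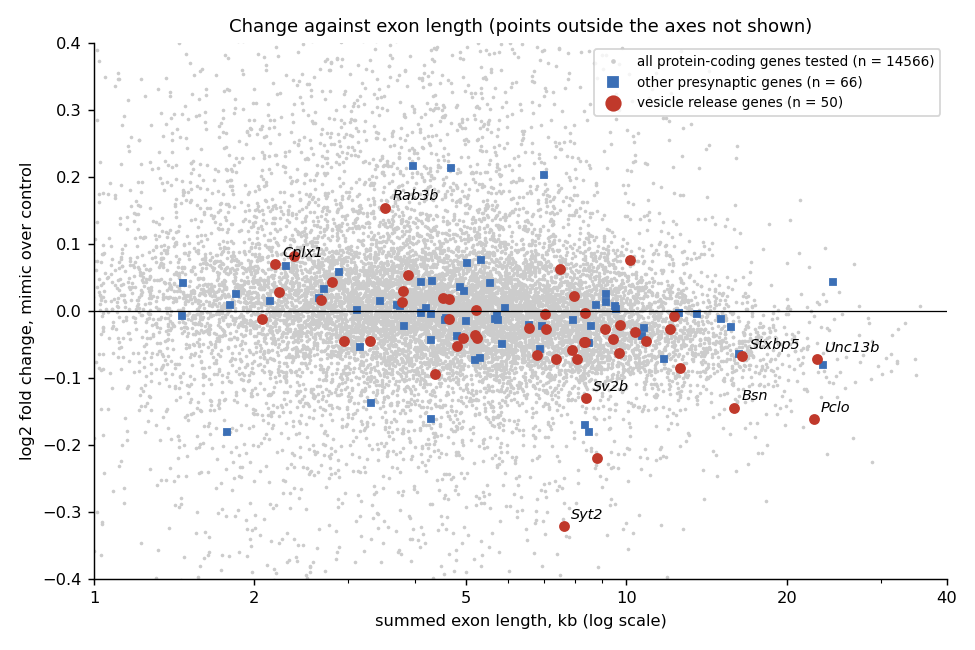
Log2 fold change against summed exon length (log axis, kb) for all tested protein-coding genes (grey), 66 other presynaptic genes (blue) and the 50 members (red), with points outside the axes not shown. Short members scatter around or above 0, and 9 of the 10 members above 10000 bases lie below 0.

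Seed matches did not sort the members clearly. The 16 members with either 7-nucleotide form had a median log2 fold change of -0.040, with 12 below 0 and 2 called. The 34 without had -0.027, with 23 below 0, and both called members were among the 16 with a match. Among all tested genes with a 3' UTR the medians were -0.022 with and 0.0070 without. Of the 3598 such genes with either form, 2249 were below 0 and 154 were called lower. Of the 10914 without, 5030 were below 0. The 5 members on the study's list of predicted miR-181a-5p targets (Syt11, Vamp1, Sypl, Synpr and Rims3) included 3 below and 2 above 0, and edgeR called 0 of them. Of the 1016 tested genes on that list, 740 were below 0 and 73 were called. The 3 members with a control-strand match were all below 0, with a median of -0.045. Of the 488 tested genes with that match 263 were below 0, with a median of -0.0087.

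A list of other presynaptic genes was written by role, with earlier results of these data known. Of 67 such genes 66 were tested, 3 were called lower and 1 higher, with 36 log2 fold changes below 0 (54.5%) and a median of -0.0052. For the members these values were 70.0% and -0.0298. The share called lower was 4.55% in this list, 4.0% among the members and 1.77% among all tested genes. Of the members 0 were called higher, and 1.08% of all tested genes were. The difference between the lists was not tested. Stxbp5l, the gene of tomosyn 2 and the paralog of Stxbp5, was lower in every mimic sample. It had 93.3, 97.7 and 102 CPM (lowest, median and highest) in control and 87.4, 86.5, 87.7, 83.3 and 86.0 CPM with the mimic (log2 fold change -0.18, SE 0.029, edgeR adjusted p 0.00115). Synj2, the paralog of Synj1, was lower at 54.6 ± 3.04 against 61.4 ± 2.94 CPM (log2 fold change -0.17, edgeR adjusted p 0.0123), and just missed the threshold without control replicate 1 (adjusted p 0.0509) and in a fit with a replicate block (adjusted p 0.0512). Lin7a, a PDZ scaffold of the CASK complex, was lower at 157 ± 8.99 against 172 ± 7.27 CPM (log2 fold change -0.14, edgeR adjusted p 0.0291), but lost the call in 7 of the 11 fits that left out 1 sample (without control replicates 1, 2, 5 and 6 or mimic replicates 2, 3 and 4, adjusted p 0.0583 to 0.119). Syt9, a fast calcium sensor related to Syt1, was the gene that rose, from 28.5 ± 1.89 to 32.8 ± 2.24 CPM (log2 fold change 0.22, SE 0.049, edgeR adjusted p 0.0139), and it was not called without control replicate 1 (adjusted p 0.0592) or without mimic replicate 4 (adjusted p 0.0601). None of the 4 has a TGAATGT in its longest 3' UTR or is on the list of predicted targets, and Synj2 holds 1 GAATGTA.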

How the data were processed

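Primary hippocampal neuron cultures given mimic (n = 5) or control (n = 6) nanoparticles were grouped by their labels. The authors deposited raw counts per Ensembl gene for each sample, made from 50 bp single-end reads of poly(A) libraries (TruSeq RNA v2, a kit that does not mark strand) with STAR 2.5.2b on mm10 and featureCounts (Subread 1.5.1). The annotation release and the counting options for strand and multi-mapping reads were not given in the sources used here. A normalized table, deposited as signal for 16921 genes, equalled the counts divided by 1 size factor per sample (largest relative difference 5.08e-10) and served an alternative only. No value column was left unassigned. Symbols, positions, exon lengths and 3' UTRs came from GENCODE M21, which matched 48349 of 48709 identifiers.

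The test ran on genes that reached 5 counts in 50% or more of the samples. It was the quasi-likelihood F-test in edgeR 4.0.16 under R 4.3.3 (two-sided; TMM scaling, robust, group only), with Benjamini-Hochberg adjustment and a threshold of 0.05. The filter and threshold are those of the study, whose tool, DESeq2 (1.42.0 here), was an alternative. The standard error was the log2 fold change divided by the root of F, and scripts were tested on simulated data. Further alternatives were other scalings and filters, limma 3.58.1 on log2(normalized signal + 1), a replicate block and leaving out each sample.

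Genes named with full values were the called members, the highest level per length and the smallest p in each of 7 role groups, the predicted targets among the members, and called other presynaptic genes. Other members with values, and the length classes, were chosen after their values were seen. The members and lists were chosen with earlier results of these data known. Some members have exons that overlap a gene on the opposite strand (18 of 50 overlap any gene), among them Syn3, Doc2a and Unc13a, and their counts may hold reads of the other gene. The 4 members under 5 CPM are the least precise. No 2 replicates of a group agreed within sampling noise (smallest chi-square per degree of freedom 1.25).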

Additional observations from a re-analysis of the deposited data

Results flagged for a closer look

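A sample stood apart in 2 of 60 groups of values that were checked (named genes, marker sums, total counts and the members' median, by group), where chance alone would give about 3. The first was the Pclo value of control replicate 2, the lowest of 6 controls: its gap to the next control took 0.776 of the range of the group in log2 CPM. Pclo stayed called without that sample. The second was the sum of neuronal markers outside the synapse in control replicate 6 (10379 CPM, next lowest 10589 CPM), with a gap of 0.682 of the range.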

How the results depend on the processing

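Sv2b and Pclo were called lower in mimic under all 18 alternatives, with edgeR, DESeq2 or limma adjusted p of at most 0.0105 and 0.0131, and no alternative called a member higher. The number of members called lower was 4 with DESeq2 (Bsn and Synj1 added), 4 without a count filter (Bsn and Unc13a added) and 2 to 4 when each sample was left out, the 4 coming without control replicate 2 (Bsn and Unc13a added). The replicate numbers do not pair the samples: deviations of same-numbered samples correlated between -0.0232 and 0.0158. A replicate block on numbers 1 to 5, which drops control replicate 6, called 3 members lower, Bsn among them (adjusted p 0.0335), and 0 higher, with a median log2 fold change of -0.029 over the members. In that fit 3 other presynaptic genes were called, 2 of them lower, Synj2 losing its call (adjusted p 0.0512). Of all genes 328 were called there (154 lower and 174 higher), against 495. The median log2 fold change of the members ranged from -0.0351 to -0.0151 when samples were left out. All called genes ranged from 218 (150 lower and 68 higher) without control replicate 1 to 491 (262 and 229) without mimic replicate 3. Other presynaptic genes called lower ranged from 1 to 3 and called higher from 0 to 1 in those fits, with 1 and 0 without control replicate 1. Upper-quartile scaling moved the split of all called genes from 307 lower and 188 higher to 226 and 234, and the median of all genes to 0.0103. Members with a log2 fold change below 0 then numbered 32 rather than 35, and 35 lay below that shifted median. They numbered 30 without mimic replicate 5, 31 without control replicate 2 or 3, and 37 at most, without mimic replicate 1. Of 378 values of single genes, 356 stayed on the same side of 0 and of the threshold and 6 changed sign, all of them Syp near 0 (-0.00374 without a count filter, -0.000837 with at least 10 counts in every sample, -0.0105 in the replicate block, and 3 of the fits that left out a sample, which spanned -0.0141 to 0.0189); the cause of these shifts was not tested. Without a count filter 785 genes were called. Depth limits what can be said of Syt2, Syn3, Unc13c and Cplx3.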
